A study of Mus musculus with 9 samples.

Results

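Sorted splenic regulatory T cells (Treg cells) of mice with and without a conditional Esrrg knockout were compared for 8 genes that are expressed at a low level in the control cells and lower still in the knockout: Plcd3, RP23-192C21.3, Dnah17, Kcnh3, Poln, Epb4.1l1, Tnnt2 and Ntn4. They are 8 of the 26683 genes in the count table, and all 8 were among the 12738 genes that passed the filter on low counts. They were chosen by their counts in these same libraries, for a large and even fall in the knockout. Their knockout to control differences are therefore given here as a description, without a test. No number was set as a limit for the choice. A fitted log2 fold change (KO over WT) at or below -0.9 was found in 0.652% of all tested genes. Of these, 20 genes also had an adjusted p below 0.05 and groups that did not overlap, and the 8 were among them. The members just inside this value were Tnnt2 at -0.93 and Ntn4 at -0.9996.

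The control mice (WT, 5 libraries) were B6N.Foxp3YFP-Cre, which carry Cre recombinase and a yellow fluorescent protein under the control of Foxp3, the gene of the transcription factor that defines Treg cells. The knockout mice (KO, 4 libraries) were EsrrgNf/f.Foxp3YFP-Cre, with the same Cre reporter and a floxed Esrrg gene, which encodes the nuclear receptor estrogen-related receptor gamma. Both groups therefore carry the Foxp3-driven Cre, and any difference of strain or colony between them cannot be told apart from genotype. Each library came from the spleen of 1 female mouse of 2 to 3 months, and CD4-positive, YFP-positive cells were sorted, so p-values measure the spread between these mice.

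Total counts ran from 15269014 to 17425634 per library, so that 3 counts, the limit that a count of 0 allows for counting error alone, equalled 0.172 to 0.196 CPM (the count per 1000000 counts of the library). The floxed gene could not check the labels: Esrrg had 0 counts in all 9 libraries, which allows up to 0.0206 CPM over all of them. The libraries matched their label as Treg cells, with Foxp3 at 523 to 598 CPM in WT and 538 to 593 CPM in KO. The library KO 4 stood apart, where Xist had 27 counts while the other 8 libraries ranged from 27355 to 35693, although every mouse is labelled female. KO 4 and KO 1 also held the most immunoglobulin transcripts, 0.801% and 0.299% of all counts, whereas the remaining 7 libraries held 0.104% to 0.161%. The summed level of 6 plasma cell markers was 121 to 167 CPM in WT and 149 to 634 CPM in KO, with 1 of 5 tested markers called higher. Most of the WT sum was Xbp1, with means of 82.1 CPM in WT and 98.0 CPM in KO. Jchain had means of 33.5 and 170 CPM and Prdm1 22.7 and 30.8 CPM. Each of the other markers had a mean of 4.26 CPM (Mzb1 in KO) or less. The summed level of 7 neutrophil markers was 0.303 to 4.39 CPM in WT and 0.570 to 24.3 CPM in KO. The part of these immunoglobulin, plasma cell and neutrophil transcripts in the results below was not tested. The fold changes of the 8 genes are also given without KO 4 and without both KO 1 and KO 4.

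The genes do not form a single pathway. Plcd3 encodes a phospholipase C of the delta class, enzymes that cut the membrane lipid PIP2 into diacylglycerol and inositol trisphosphate, which releases calcium from internal stores. Kcnh3 encodes a voltage-gated potassium channel of the ether-a-go-go family, best known in forebrain neurons. Dnah17 encodes a heavy chain of axonemal dynein, a motor of cilia and sperm flagella, Tnnt2 the cardiac form of troponin T, which couples calcium to contraction, and Epb4.1l1 (now Epb41l1) a protein 4.1 family member that ties membrane proteins to the spectrin and actin skeleton. Poln encodes a DNA polymerase of the A family with a role in repair and damage bypass, and Ntn4 a secreted netrin of basement membranes. RP23-192C21.3 is a gene model named after a genomic clone, and its symbol matched no entry of the annotation used, so it has no position or product here.

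RP23-192C21.3 had 102, 99, 115, 117 and 136 counts in WT 1 to 5 and 4, 0, 6 and 6 counts in KO 1 to 4. Every WT library was thus well above the floor of 3 counts, whereas KO 2 held no count, which allows up to 0.190 CPM, and the other KO libraries held a few. The WT mean of 7.06 ± 1.09 CPM (SD, n = 5) compared with a KO mean of 0.248 ± 0.180 CPM (n = 4), which is 3.51% of it. Summed over libraries, 569 WT and 16 KO counts gave a depth-scaled ratio of 28.4 (95% exact interval 17.4 to 50.1, counting error only). Its fitted log2 fold change of -4.79 ± 0.38 (SE) was the lowest of all tested genes, and its value was -5.04 without KO 4 and -5.13 without KO 1 and KO 4. A second model named after the same clone, RP23-192C21.2, had 0 counts in all 9 libraries.

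Plcd3 (mm10, chromosome 11, 103070304 to 103101658, minus strand) had 14, 28, 19, 23 and 28 counts in WT 1 to 5 and 1, 2, 0 and 1 in KO 1 to 4. All 4 KO libraries lay at or under the floor of 3 counts, and all 5 WT libraries lay above it. KO 3 held no count, whereas KO 1, KO 2 and KO 4 held 1 or 2 counts each. Counting all 8 genes, 5 of 32 pairs of a gene and a KO library were at or under 3 counts, and 0 of 40 pairs in WT, where the lowest count was 14. The lowest WT library, WT 1 with 0.830 CPM, was 6.55 times the highest KO library, KO 2 with 0.127 CPM. The group means were 1.39 ± 0.393 CPM (SD, n = 5) and 0.0615 ± 0.0518 CPM (n = 4). The summed counts, 112 in WT and 4 in KO, gave a ratio of 22.4 with a wide 95% exact interval of 8.51 to 83.6. The fitted log2 fold change of -4.33 ± 0.48 (SE) was the second lowest of all tested genes, but it rests on a prior count and ran from -4.85 without KO 2 to -3.98 without KO 3. It was -4.33 without KO 4 and -4.27 without KO 1 and KO 4.

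Plcd3 is the placed gene with the deepest fall. Ntn4 held the most motif matches in its window, and Dnah17, with the highest WT mean in CPM, held none of the motifs searched. The promoter windows of these genes are printed here. Each is the RefSeq window on build GRCm38.p6 (the assembly of mm10) from 250 bases before to 50 bases after an annotated start, on the gene's own strand at chr11:103101609-103101908 (minus), chr10:93640799-93641098 (plus) and chr11:118129170-118129469 (minus). The windows of Ntn4 and Dnah17 lie wholly inside the genes as placed here, which start at 93640681 (plus strand) and 118130634 (minus strand). Bases before those gene starts were not searched. Capitals mark matches to GGGCGG (GC box) or AGGTCA (nuclear receptor half-site) on either strand.
Plcd3: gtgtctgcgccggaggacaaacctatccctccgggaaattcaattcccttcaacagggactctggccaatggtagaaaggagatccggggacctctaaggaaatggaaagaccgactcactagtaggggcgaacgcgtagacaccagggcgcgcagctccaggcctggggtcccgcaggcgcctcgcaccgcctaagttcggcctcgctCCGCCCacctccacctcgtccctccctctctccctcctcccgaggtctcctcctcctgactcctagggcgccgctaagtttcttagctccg
Ntn4: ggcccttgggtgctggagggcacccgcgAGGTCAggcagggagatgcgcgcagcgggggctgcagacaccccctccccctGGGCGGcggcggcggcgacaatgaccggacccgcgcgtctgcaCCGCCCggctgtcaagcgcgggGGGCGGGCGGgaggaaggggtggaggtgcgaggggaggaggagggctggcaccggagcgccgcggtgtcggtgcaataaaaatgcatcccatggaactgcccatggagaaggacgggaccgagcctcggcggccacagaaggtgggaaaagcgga
Dnah17: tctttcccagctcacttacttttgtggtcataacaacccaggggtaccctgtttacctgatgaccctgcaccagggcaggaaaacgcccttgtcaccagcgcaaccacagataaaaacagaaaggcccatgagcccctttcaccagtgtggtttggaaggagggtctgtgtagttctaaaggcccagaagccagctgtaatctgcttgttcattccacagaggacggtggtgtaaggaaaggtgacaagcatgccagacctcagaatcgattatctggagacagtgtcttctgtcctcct
Across the 9 windows found for 6 of the genes (Plcd3, Dnah17, Poln, Epb4.1l1, Tnnt2 and Ntn4), the longer element TNAAGGTCA, the form that estrogen-related receptors are known to bind and which contains the half-site, was in 0 genes, against 1.43% of the 27025 genes with a promoter in the table. AGGTCA was in 1 of the 6, Ntn4 at -222 from the start used for its window, against 18.1% of all genes. That match lies downstream of the Ntn4 gene start as placed here, 93640681. GGGCGG was in 4 of 6 (Plcd3, Ntn4, Poln and Epb4.1l1) against 38.2%, and TATAAA in 0 against 15.7%. The Poln window, 34169477 to 34169776, lies wholly outside Poln as placed here, which starts at 34169448 on the minus strand. It holds the start of the overlapping gene Haus3, at 34169527 on the same strand, so its GC boxes cannot be assigned to Poln alone. Base composition varied widely among the windows, from 45.7% G and C in 1 of the 2 Tnnt2 windows to 74.0% in 1 of the 3 Epb4.1l1 windows, with a median of 52.7% over all promoters. None of the 4 motifs was found in all 6 genes.

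**Figure D1:**
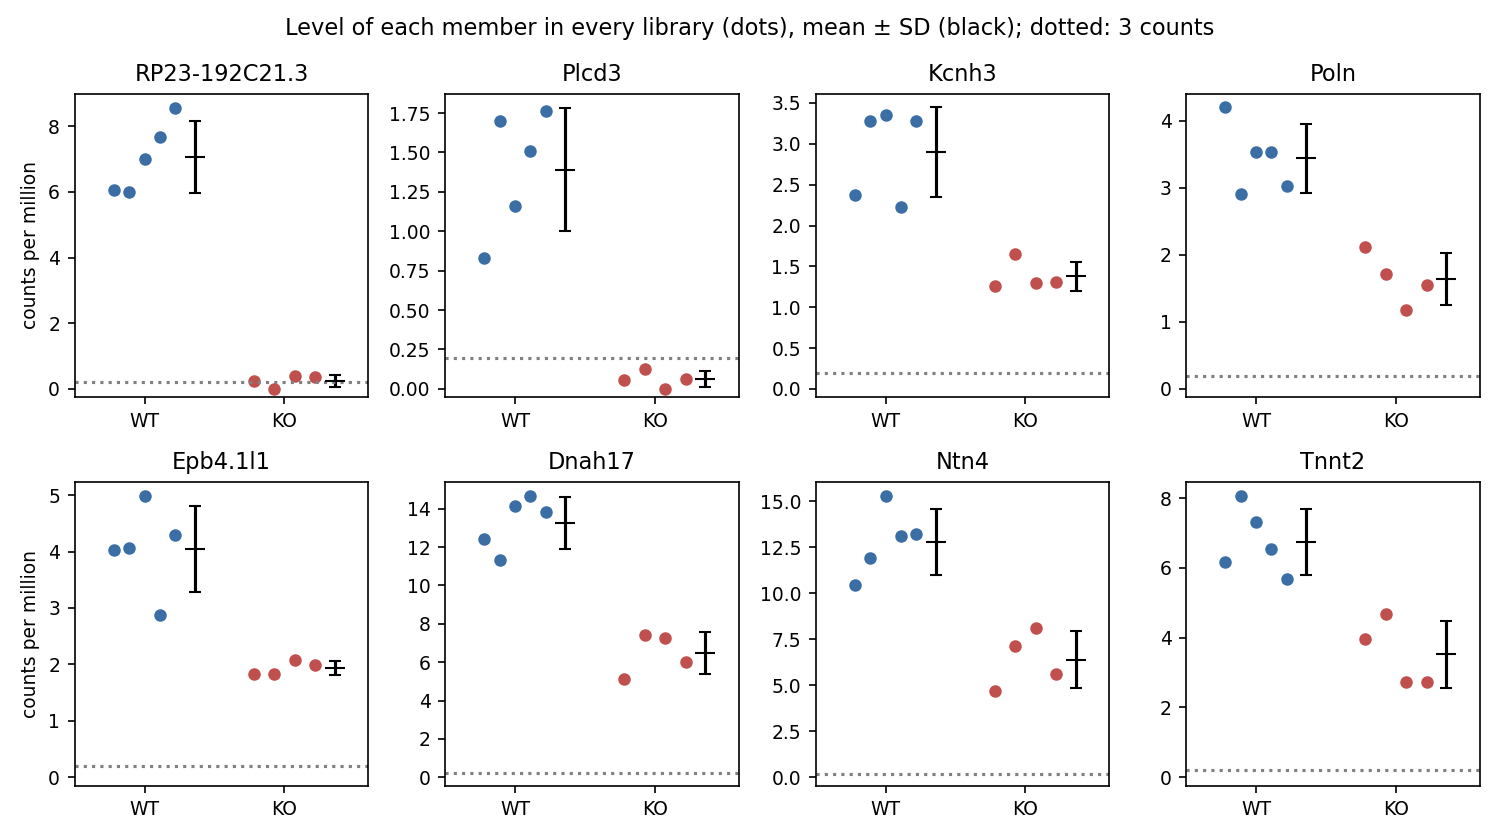
Level of each of the 8 genes in CPM (vertical axes, each with its own scale) in 5 WT (blue) and 4 KO (red) libraries, with the mean and SD in black and a dotted line at 3 counts in the shallowest library. No KO dot reaches a WT dot for any of the 8 genes, which were chosen for an even fall. Plcd3 lies under the dotted line in all 4 KO libraries.

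The other 6 genes, also chosen for a large and even fall, fell to a narrow range of fractions. Their KO means were 47.5% to 52.2% of their WT means, none was near the floor, and the lowest count among them in any library was 18 (Poln in KO 3). Because RNA came from bulk sorted cells, fewer cells with a transcript and less RNA per cell cannot be told apart.

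Among the signalling and channel genes, Kcnh3 (chromosome 15, 99224861 to 99242817, plus strand) had 40, 54, 55, 34 and 52 counts in WT 1 to 5 and 22, 26, 20 and 21 in KO 1 to 4. WT 4 and WT 1 were the low control libraries, and the KO libraries lay below them, with KO 2 above the other 3. Its mean went from 2.90 ± 0.552 CPM (SD, n = 5) to 1.38 ± 0.179 CPM (n = 4), a log2 fold change of -1.07 ± 0.20 (SE). Without KO 4 this value was -1.04, and without KO 1 and KO 4 it was -0.96. The summed level of 5 neuronal markers was 6.75 to 15.6 CPM in WT and 8.64 to 8.84 CPM in KO, most of it Camk2a, with a mean of 6.77 and 8.51 CPM. Of the other neuronal markers, Snap25 was at 0 in every library, Tubb3 had a mean of 1.92 CPM in WT and 0.264 CPM in KO with most counts in WT 2, and Syt1 and Rbfox3 had 26 and 3 counts, all in WT.

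Among the cytoskeletal and motor genes, Dnah17 (chromosome 11, 118021723 to 118130634, minus strand) had the highest group means of the 8 in CPM, although Ntn4 exceeded it in WT 2, WT 3 and KO 3. It held 210, 187, 232, 224 and 219 counts in WT 1 to 5 and 89, 117, 112 and 97 in KO 1 to 4. KO 1 and KO 4 were the lowest, and every KO library was far below WT 2, the lowest control. The mean went from 13.3 ± 1.36 CPM (SD, n = 5) to 6.45 ± 1.09 CPM (n = 4), a log2 fold change of -1.04 ± 0.13 (SE) that was -1.01 without KO 4 and -0.84 without KO 1 and KO 4. Of 6 markers of ciliated cells, 3 were in the table, and their summed level was 0.589 to 1.42 CPM in WT and 0.443 to 0.994 CPM in KO.

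Epb4.1l1 (chromosome 2, 156420909 to 156543214, plus strand) had 68, 67, 82, 44 and 68 counts in WT 1 to 5 and 32, 29, 32 and 32 in KO 1 to 4. The 4 KO libraries were nearly equal, whereas WT 4 stood low among the controls. Its mean went from 4.05 ± 0.760 to 1.93 ± 0.120 CPM (SD, n = 5 and 4), a log2 fold change of -1.06 ± 0.18 (SE). The value was -1.07 without KO 4 and -1.03 without KO 1 and KO 4.

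Tnnt2 (chromosome 1, 135836354 to 135852260, plus strand) had 104, 133, 120, 100 and 90 counts in WT 1 to 5 and 69, 74, 42 and 44 in KO 1 to 4. This gene had the narrowest gap, since the lowest control, WT 5 with 5.67 CPM, was 1.21 times the highest knockout library, KO 2 with 4.68 CPM. The mean went from 6.75 ± 0.949 to 3.53 ± 0.965 CPM (SD, n = 5 and 4), a log2 fold change of -0.93 ± 0.18 (SE). Of 8 muscle markers, Myh7, Myl2 and Myl3, which define heart and slow muscle, had 0 counts in all libraries. The summed level of the list was 52.9 to 97.9 CPM in WT and 77.3 to 126 CPM in KO, with none called. Nearly all of that sum was Ttn, at a mean of 67.7 CPM in WT and 101 CPM in KO. The other detected markers had lower means in KO: Acta1 2.03 and 0.0776 CPM, Tnni3 0.947 and 0.621 CPM, and Actc1 0.159 and 0.0158 CPM in WT and KO, while Myh6 had 2 counts in all. The skeletal actin gene Acta1 had 151 of its 172 counts in WT 2, the library with the most Tnnt2, and without WT 2 the Tnnt2 log2 fold change was -0.86. It was -0.83 without KO 4 and -0.85 without KO 1 and KO 4.

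Poln (chromosome 5, 34007179 to 34169448, minus strand), the repair polymerase gene, had 71, 48, 58, 54 and 48 counts in WT 1 to 5 and 37, 27, 18 and 25 in KO 1 to 4. WT 1 was the highest control and KO 1 the highest knockout library, and the groups did not overlap. The mean went from 3.44 ± 0.514 to 1.64 ± 0.395 CPM (SD, n = 5 and 4), a log2 fold change of -1.07 ± 0.20 (SE), or -1.04 without KO 4 and -1.24 without KO 1 and KO 4.

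Ntn4 (chromosome 10, 93640681 to 93747207, plus strand), the secreted netrin gene, had 176, 196, 251, 200 and 210 counts in WT 1 to 5 and 82, 113, 125 and 90 in KO 1 to 4. KO 1 and KO 4 were the lowest libraries and KO 3 the highest of the knockouts. The mean went from 12.8 ± 1.80 to 6.39 ± 1.53 CPM (SD, n = 5 and 4), a log2 fold change of -0.9996 ± 0.16 (SE), which was -0.94 without KO 4 and -0.73 without KO 1 and KO 4. Of the endothelial and stromal markers, endothelial cells being a known source of netrin 4, Cdh5 had 22 counts and Kdr 3 counts over all 9 libraries together. The list summed to 200.2 to 237 CPM in WT and 191 to 221 CPM in KO, with none of 3 tested markers called, and nearly all of it was Pecam1, with means of 219 and 203 CPM. Each of the other markers had a mean of 1.77 CPM (Col1a1 in KO) or less.

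**Figure D2:**
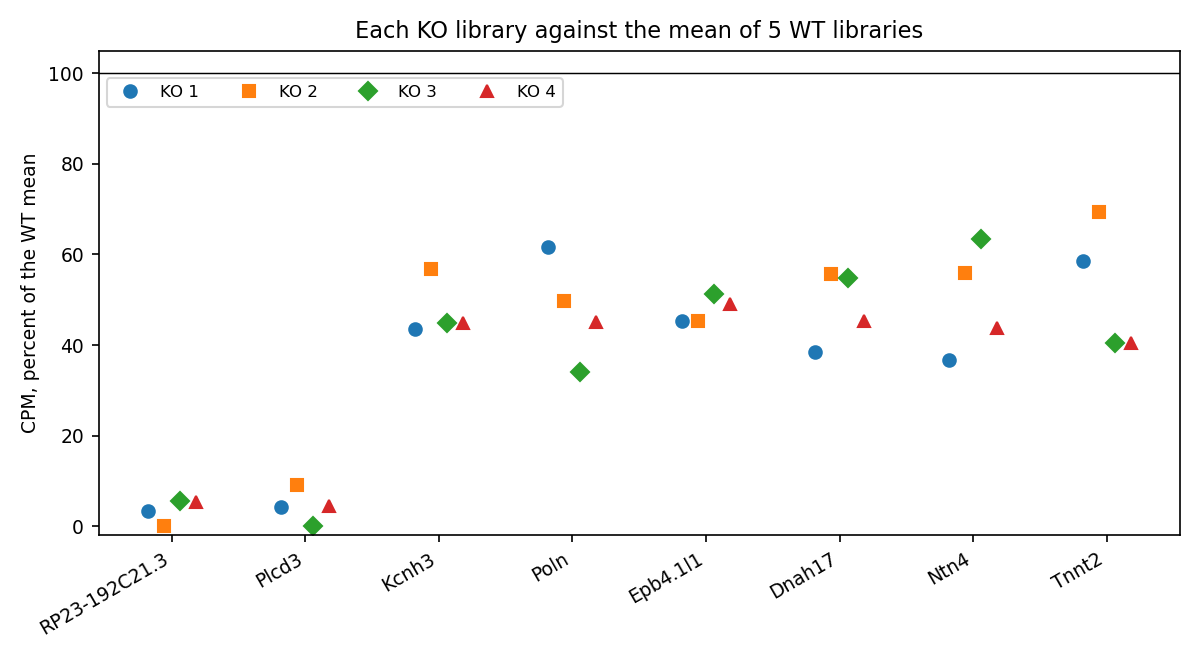
CPM of each KO library as a percentage of the mean of the 5 WT libraries (vertical axis), for each of the 8 genes (horizontal axis), with 1 symbol per KO library. RP23-192C21.3 and Plcd3 sit near 0, and the other 6 genes sit between 34.0% and 69.4%, with no KO library low or high for every gene. All 8 genes were chosen for an even fall in these libraries.

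The fall in the 6 genes was seen in each KO library, as their choice for an even fall made likely. The median over the 6, as a percentage of the WT mean, was 44.4% in KO 1, 55.8% in KO 2, 48.1% in KO 3 and 45.0% in KO 4. KO 1 and KO 4, the libraries with the most immunoglobulin transcripts, had the lower medians, and the cause of this was not tested. The gene that was highest was Poln in KO 1, Tnnt2 in KO 2, Ntn4 in KO 3 and Epb4.1l1 in KO 4. Within WT, the same medians ran from 92.5% in WT 1 to 112% in WT 3.

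All 8 genes were called lower by edgeR's quasi-likelihood test at an adjusted p of 0.05 and all 8 had groups without overlap, which their choice fixed. In the whole table, 1.88% of tested genes were called lower and 1.4% higher, while groups did not overlap in 9.1%, made up of 5.16% lower and 3.94% higher in KO. Without KO 4, or without KO 3 or WT 3, 5 of the 8 were called. Of the 9 fits that left out 1 library, Kcnh3 and Tnnt2 were each called in 5 and Poln in 6. The rest of the 8 genes were called in all 9. In the range of WT levels spanned by the 8 genes, 39 of 3228 tested genes (1.21%) were called lower. The median log2 fold change was -1.07 for the 8 genes, 0.0052 for all tested genes and 0.013 for tested genes in that range.

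**Figure D3:**
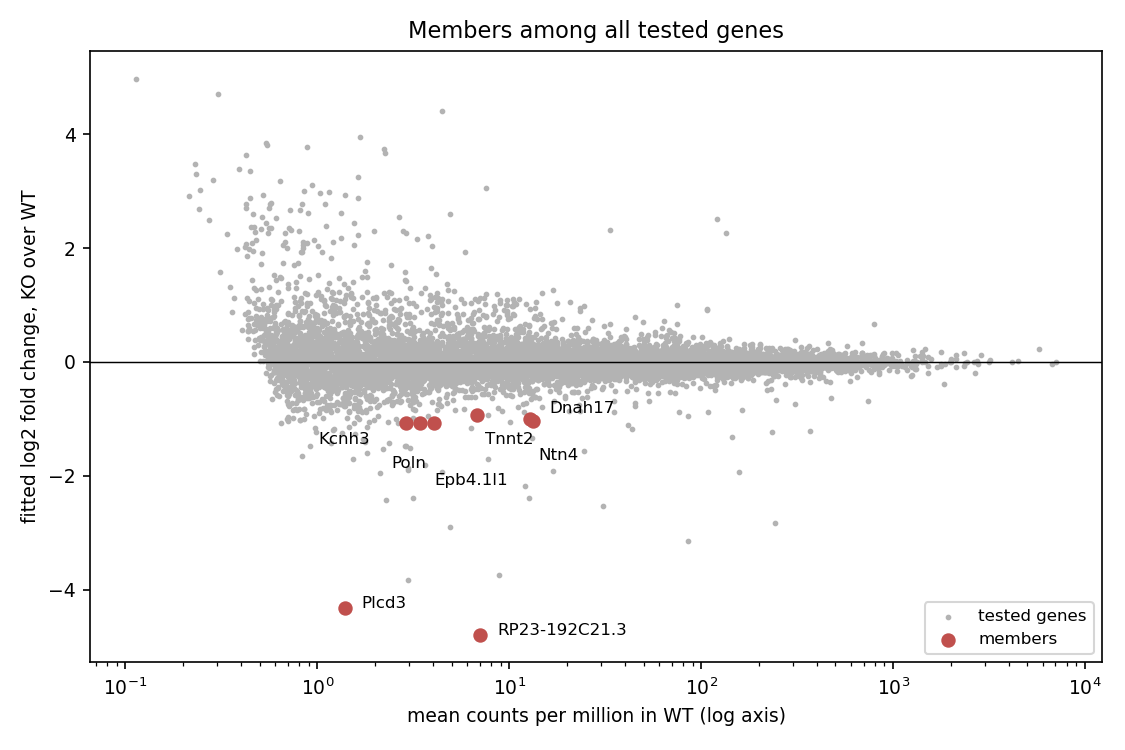
Fitted log2 fold change (KO over WT, vertical axis) against mean CPM in WT (horizontal log axis) for all tested genes (grey) and the 8 genes (red). RP23-192C21.3 and Plcd3 have the lowest values of all, and the other 6 lie between -0.93 and -1.07.

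Expressed per kilobase of annotated exon, the level in WT was highest for Ntn4, at 3.42 ± 0.480 CPM per kilobase (SD, n = 5). No WT library of Ntn4 overlapped those of Tnnt2 (0.871 ± 0.122), the next in order. Dnah17 (0.823 ± 0.0841), Poln (0.635 ± 0.0948), Kcnh3 (0.504 ± 0.0960), Plcd3 (0.410 ± 0.116) and Epb4.1l1 (0.351 ± 0.0659) followed, and from Tnnt2 on each gene's WT range overlapped that of its neighbour in the order. The median over 12539 tested genes with a position was 7.17 CPM per kilobase, so 6 of the 7 placed genes were in the lowest 15% and Ntn4 at the percentile of 33.1. In KO, the value for Plcd3 was 0.0181 ± 0.0153 CPM per kilobase (SD, n = 4), from counts under the floor. The 7 genes are all protein-coding but differ in build, from 11 merged exon blocks in Ntn4 to 84 in Dnah17, and from 15.9 kilobases of gene in Tnnt2 to 162 in Poln, against medians of 9 blocks and 21.1 kilobases.

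Deviations from the group means differed in sign among the 8 genes. Over the 9 libraries, Pearson's r of these deviations in log2 CPM had a median of -0.055 across the 28 pairs, 12 of them positive. The most alike were Dnah17 and Ntn4 (r = 0.87), the most abundant of the 8, and the least alike RP23-192C21.3 and Tnnt2 (r = -0.83), although the first had few KO counts. With group means left in, genes most like the summed level of the 8 included Carns1 (r = 0.987), Arhgap20 (0.985), Frmd6 (0.984) and Snapc1 (0.983). Their log2 fold changes were -0.89 to -0.55. Since the 8 were chosen for their fall in KO, these r values rest in part on the WT to KO difference itself. For single genes, the closest deviations among 11977 candidates were those of Stk38 for Dnah17 (r = 0.992), Rcn1 for Ntn4 (0.992), Pros1 for Plcd3 (0.985), Slc35d2 for Epb4.1l1 (0.973), Gm7027 for Poln (0.969), Lmln for RP23-192C21.3 (0.968), Api5 for Tnnt2 (0.947) and Rita1 for Kcnh3 (0.946). These are the highest of many values from shared libraries and are given as a description.

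Genes around the 7 placed genes did not enter the choice and were tested in the same fit. Of 18 tested genes that overlap or lie next to them, 2 were called (11.1%, against 3.28% of all tested genes), and their median log2 fold change was 0.002. Both were lower in KO. Prpf40b, a splicing factor gene 52269 bases from Kcnh3, had 280, 318, 348, 270 and 325 counts in WT 1 to 5 and 266, 243, 214 and 247 in KO 1 to 4. Its log2 fold change was -0.35 ± 0.08 (SE), with an edgeR adjusted p of 0.0354. Lad1, which encodes the basement membrane protein ladinin and lies 3011 bases from Tnnt2, went from 39.8, 51.2, 44.5, 49.3 and 41.1 CPM to 36.8, 36.8, 35.6 and 37.7 CPM, at -0.30 ± 0.07 (adjusted p = 0.0441). In CPM, the highest KO library of both genes lay just under the lowest control, WT 1, and the differences were small beside those of Kcnh3 and Tnnt2. Neither call was stable: in fits that left out 1 of the 9 libraries, Prpf40b was called in 3 and Lad1 in 2.

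Neither gene next to Plcd3 passed the test. Acbd4, 23 bases away on the other strand, was at 19.6 CPM in WT and 19.7 CPM in KO (log2 fold change 0.0045, edgeR adjusted p = 0.975), and Nmt1, 1391 bases away on the other side, at 102 and 111 CPM (0.13, adjusted p = 0.0759). Of the tested genes, 4 overlap a placed gene. Haus3, a spindle gene on the strand of Poln that shares 108 exonic bases with it, was at 82.9 and 73.5 CPM (-0.17, adjusted p = 0.0715). Pgs1, opposite Dnah17 with 93 shared exonic bases, was at 79.1 and 78.2 CPM (-0.015, adjusted p = 0.855). Mcrs1, opposite Kcnh3 with 1 shared base, was at 45.1 and 39.9 CPM (-0.18, adjusted p = 0.148), and the antisense gene Gm15915 in the Ntn4 locus at 1.40 and 1.97 CPM (0.49, adjusted p = 0.454). Whether counting used strand is not stated in the labels, so counts of Dnah17 and Kcnh3 from exons shared with genes on the other strand are uncertain. For Poln, how reads in the exon shared with Haus3 were assigned is not stated either.

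Pooled over the 7 genes, wider windows held calls near the background of 3.28%, but the share varied between genes. Within 1 megabase of the 7 genes, 8 of 196 tested genes were called (4.08%), and within 5 megabases 30 of 711 (4.22%). The largest share within 1 megabase was around Tnnt2, with 3 of 24, and none of 33 genes around Plcd3, 25 around Dnah17 or 17 around Ntn4 was called. Within 5 megabases the share ran from 2.07% around Dnah17 to 7.84% around Kcnh3, where 6 of 102 tested genes were called lower and 2 higher. It was 6.94% around Tnnt2, with 4 of 72 called lower and 1 higher. The window of 5 megabases around Plcd3 included Myl4 and Cdc27, which were called.

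**Figure D4:**
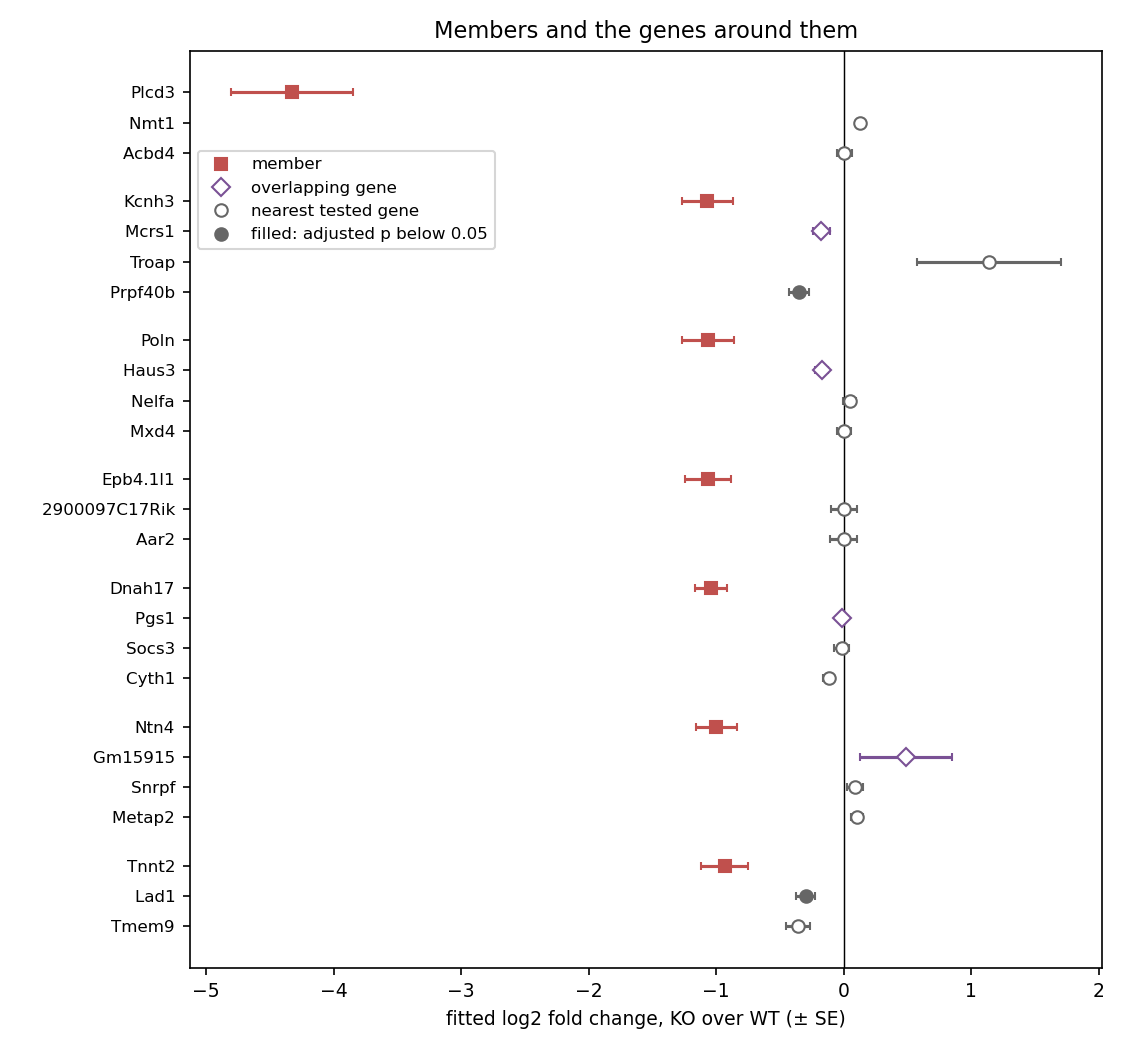
Fitted log2 fold change (KO over WT) with SE for the 7 placed genes (red squares), the tested genes that overlap them (diamonds) and the nearest tested gene on each side (circles), filled where the adjusted p was below 0.05. The neighbours lie between -0.36 (Tmem9) and 0.49 (Gm15915) except Troap at 1.14 (edgeR adjusted p = 0.279). The 7 genes, which were chosen for a large fall, lie at -0.93 or lower.

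Relatives of the genes by family or pathway were tested in the same fit, in lists made with earlier results of these data known. Of 166 such genes listed, 89 were tested, and 2 were called (2.25%, against 3.28% of all tested genes), 1 lower and 1 higher, with a median log2 fold change of -0.02. The gene called lower was Ntn1, which encodes netrin 1, the founding axon guidance netrin. Its level was 10.7, 11.0, 13.3, 11.9 and 11.8 CPM in WT 1 to 5 and 7.17, 7.22, 7.54 and 6.09 CPM in KO 1 to 4. All KO libraries were below all WT libraries, and the log2 fold change was -0.75 ± 0.10 (SE), with 5 and 4 libraries and an edgeR adjusted p of 0.0038. Ntn1 was called in all 9 fits that left out 1 library and at an adjusted p of 0.0254 without KO 1 and KO 4, within a range of 1.49e-06 to 0.0630 over all alternatives. Netrin receptor genes did not pass: Neo1, which encodes neogenin, was at -0.32 (adjusted p = 0.476), and Unc5a at 0.08 (adjusted p = 0.845). The integrin gene Itga3 had the next smallest p of this list, at -0.29 (adjusted p = 0.0999), so 1 of 9 tested genes of the netrin list was called.

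Myl4, an atrial myosin light chain gene, was the gene called higher, in the list of troponins, tropomyosins and sarcomere proteins, of which 1 of 9 tested genes was called. Its level was 2.31, 3.03, 2.25, 2.29 and 2.21 CPM in WT 1 to 5 and 7.69, 3.54, 5.26 and 5.96 CPM in KO 1 to 4. Its log2 fold change was 1.21 ± 0.20 (SE), with an edgeR adjusted p of 0.0107. KO 1 was the highest and KO 2 close to WT 2, and without KO 1 and KO 4 the adjusted p was 0.0889, within a range of 0.000184 to 0.132 over all alternatives. Other troponin T genes did not pass: Tnnt3 was at -0.52 (adjusted p = 0.110) and Tnnt1 at -0.25 (adjusted p = 0.658).

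No gene was called in the other 5 lists by edgeR. An unadjusted p below 0.05 was found for 17 of their 71 tested genes, and for 21.6% of all tested genes. DESeq2 called 6 genes over all 7 lists. In the phospholipase C list 0 of 10 passed, with Plcxd2 at -0.21 (adjusted p = 0.0660) and Plcb2 at -0.16 (adjusted p = 0.116). An unadjusted p below 0.05 was found for 6 of these 10, in both directions. Of the 6, Plcg2 at 1.22 (adjusted p = 0.213) and Plcd1, of the delta class, at 0.44 (adjusted p = 0.229) were higher. The others were lower. Among voltage-gated and calcium-gated potassium channels 0 of 9 passed, with Kcnq5 at -0.29 (adjusted p = 0.0557) and Kcnh2, of the same ether-a-go-go family as Kcnh3, at -0.36 (adjusted p = 0.0670). Kcna3 and Kcnn4, the main potassium channels of T cells, were at 0.09 (adjusted p = 0.301) and -0.0034 (adjusted p = 0.971). In the dynein list 0 of 18 passed, with Dync2h1 at -0.16 (adjusted p = 0.158) and Dynll1 at 0.26 (adjusted p = 0.228). Among repair and bypass DNA polymerases 0 of 14 passed, with Rev1 at -0.24 (adjusted p = 0.0674) and Poll at 0.20 (adjusted p = 0.0713). In the list of protein 4.1 and spectrin skeleton genes 0 of 20 passed, with Ank1 at 1.73 (adjusted p = 0.188) and Add3 at -0.12 (adjusted p = 0.235).

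**Figure D5:**
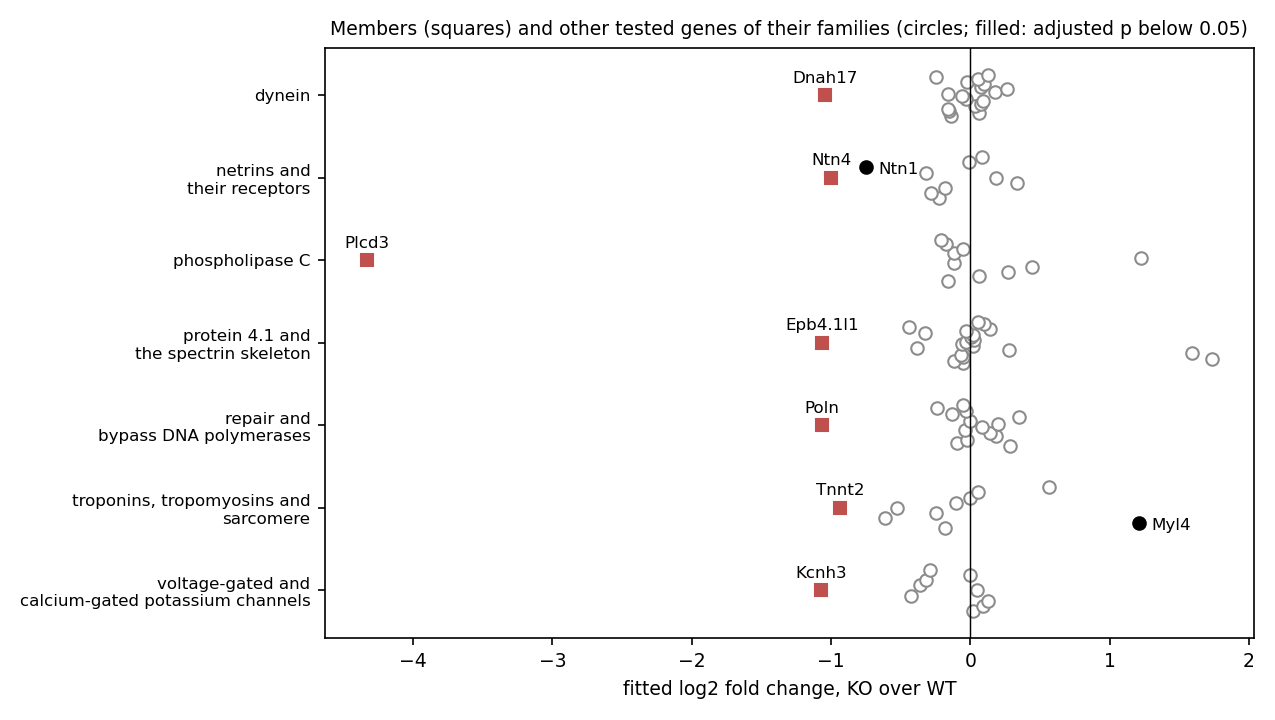
Fitted log2 fold change (KO over WT, horizontal axis) of 7 of the 8 genes (red squares) and of the other tested genes of their families (circles, filled where the adjusted p was below 0.05), 1 row per list. Ntn1 at -0.75 and Myl4 at 1.21 are the filled circles. In every list the square lies below all circles, as the choice of the 8 genes for a large fall made likely.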

How the data were processed

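Bulk RNA sequencing of sorted Treg cells from 5 WT and 4 KO mice was used, 1 library per mouse, and a stranded Illumina kit was used, per the labels' protocols. The deposited values are whole-number counts for each gene symbol, as the authors made them, in a single table. STAR 2.7, DESeq2 and mm10 appear in the submitters' processing notes, with no role. Counting program, strand setting and annotation: not given in the sources used here. The members and the lists were chosen with earlier results of these data known. Samples were grouped by title.

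CPM is the count divided by the library total and multiplied by 1000000. Counts of all 12738 genes that passed edgeR's default filter entered the quasi-likelihood test of edgeR 4.0.16 (R 4.3.3, robust fit, trimmed-mean scaling, Benjamini-Hochberg adjustment over all tested genes, threshold 0.05), after a check on simulated data. Standard errors come from the log2 fold change and its F statistic. Log2 CPM used a prior count of 2. Intervals of summed counts are exact binomial ones at 95%, and with floors of 3 counts they cover counting error only. No 2 libraries were duplicates, since the chi-square per degree of freedom of the closest pair was 2.34. Symbols were placed with GENCODE M21 on mm10, 24788 by name and 621 by a RefSeq synonym. From each list the called genes were named, or else the 2 with the smallest p, with every tested overlapping gene and the nearest tested gene on each side as candidates around a member. For likeness, the 5 genes closest to the summed level and 1 per gene were named, at a mean CPM of at least 1. Of these, 1 gene is not reported here. Other genes named (Neo1, Unc5a, Tnnt1, Tnnt3, Itga3, Kcna3, Kcnn4, Plcg2, Plcd1, Tmem9, Troap, RP23-192C21.2 and Cdc27) were chosen after their values were seen. Alternatives were other scalings, filters and tests (DESeq2 1.42.0, limma 3.58.1), replicate blocks and leaving out libraries. Leaving out KO 1 and KO 4 together was chosen after seeing the data.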

Additional observations from a re-analysis of the deposited data

Results flagged for a closer look

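Within groups of 4 or 5 libraries, 4 values lay far from the rest of their group among 40 groups examined, where chance alone flags about 1 in 20. Kcnh3 in KO 2 was at 1.65 CPM, against 1.26 to 1.30 CPM in the other KO libraries, and remained below every WT library. The summed neutrophil markers were at 4.39 CPM in WT 4, against 0.303 to 1.40 CPM in the other WT libraries. The summed markers of ciliated cells were at 1.42 CPM in WT 1, against 0.589 to 0.820 CPM, and Dnah17, an axonemal gene, was at 12.4 CPM there, below its WT mean. The summed neuronal markers were at 15.6 CPM in WT 2, against 6.75 to 8.13 CPM, with 143 of the 175 counts of Tubb3 in that library.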

How the results depend on the processing

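None of the 176 alternative values of the 8 log2 fold changes changed sign, and 7 of them, of Plcd3, RP23-192C21.3 and Dnah17, moved by more than the spread between replicates. The 8 genes were chosen for a large and even fall in these libraries, so a change of sign was unlikely from the start. Taken as a difference of mean log2 CPM in place of the fitted value, the fold change of Plcd3 depended on the prior count. It was -4.86 at the smallest prior tried, -3.03 at 2 and -2.17 at 5. At the same priors, the difference for RP23-192C21.3 was -5.76, -4.45 and -3.78. Leaving out 1 library at a time, the median log2 fold change of the 8 genes ran from -1.11 to -1.02, the number of them called from 5 (without WT 3, KO 3 or KO 4) to 8, all genes called from 97 (without WT 3) to 697 (without WT 2), family genes called from 2 to 5 (without WT 2) and neighbours called from 0 (without WT 3, WT 4, WT 5, KO 3 or KO 4) to 3. DESeq2 called 888 genes, 6 family genes and 5 neighbours, and limma-voom called 1 neighbour. Without KO 1 and KO 4 together 118 genes were called, with 5 of the 8, 1 family gene (Ntn1) and 1 neighbour. With the number in the titles as a replicate block 26 genes, 4 of the 8, 0 family genes and 0 neighbours were called. With the bracketed library number as the replicate block 456 genes, 5 family genes and 0 neighbours were called. The fit by title number also left out WT 5, and that by bracketed number WT 2, as no KO library had their number. Leaving out WT 5 alone gave 117 called genes, and WT 2 alone 697. The deviations of same-numbered libraries had r from -0.303 to 0.230 by title and from -0.231 to 0.170 by bracketed number. So few pairs cannot show whether libraries of the same number were handled together. The half-site in place of the longer element was found in 1 promoter gene against 0. The cause of these changes was not tested. Depth limits Plcd3 and RP23-192C21.3, whose KO counts were at or near the floor.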
